A study of Mus musculus with 8 samples.

Results

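The matrix metalloproteases (MMPs), the ADAMTS proteases, the ADAMTS-like proteins and the tissue inhibitors of metalloproteases (TIMPs) were followed in cultured mouse cardiac fibroblasts. Members were the protein-coding genes of the deposited tables with a symbol of one of these families, leaving out Adamts2, Adamts3 and Adamts14. There were 47 such genes among 54532 in the tables: 22 MMP, 4 TIMP, 16 ADAMTS and 5 ADAMTS-like genes.

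The cells were C57BL/6 cardiac fibroblasts at passage 2. One group received the plasmid pAAV.CMV.SV40.THBS4-HA.SV40(polyA), which carries murine Thbs4, the gene of thrombospondin-4 (TSP-4), with an HA tag. The control group received the empty plasmid pAAV-CA, a different construct, so TSP-4 and the rest of its plasmid cannot be told apart. All cells then spent 12 h in standard medium and 24 h without serum, and each group gave 4 poly(A) RNA libraries, which carry the letters A to D under either plasmid. The labels do not say what a letter marks, whether libraries came from separate animals or cultures, or the age or sex of the animals. The p-values therefore measure the spread between these libraries, which may be technical.

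Total counts ranged from 17123735 to 22530947 per library. Thbs4 stood at 523, 444, 657 and 539 FPKM (fragments per kilobase of gene length, scaled to library size) in the TSP-4 plasmid libraries A to D and at 0.0286, 0.195, 0.122 and 0.0474 FPKM in the empty plasmid libraries, a log2 fold change of 12.45 (SE 0.34, edgeR adjusted p 1.93e-06). Libraries of the same letter deviated together from their group means across genes (Pearson's r from 0.508 to 0.651, against -0.570 to 0.323 for different letters), and 8 of 8 libraries lay closest to their own letter. Fibroblast markers summed to between 8084 and 11736 CPM (counts scaled to library size), with 8 of 8 genes tested and Col1a1 at 692 to 939 FPKM. Macrophage markers were also present and differed between letters, as given below beside the results they moved with.

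MMPs are zinc-dependent proteases that cut collagens and other matrix proteins and are made as inactive proenzymes. ADAMTS proteases are secreted relatives with thrombospondin type 1 repeats, and several of them cut proteoglycans such as versican and aggrecan. ADAMTS-like proteins keep the repeats but lack the protease domain, and TIMPs bind and block the active proteases. In the heart, fibroblasts make much of the matrix and many of the enzymes that remodel it.

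No member passed the test between plasmids, and most tested members differed between the lettered libraries. Of 47 members, 35 had enough counts to be tested. edgeR's quasi-likelihood test with Benjamini-Hochberg adjustment over all 14723 tested genes called 0 of them higher and 0 lower with the TSP-4 plasmid, where 0.00679% of all tested genes (1 gene, Thbs4 itself) were called higher and 0% lower. Between letters, the same kind of test called 23 of 35 members, or 65.7%, against 28.1% of all tested genes. On simulated counts, more of the calls of this test and of the plasmid test were false than the threshold allows. For the plasmid test, the simulated counts held no differences between letters, unlike these libraries. For the letter test, they held differences in letter C alone and in fewer genes than were called here. Neither share can therefore be carried over, and the share of false calls in these libraries is not known. In these libraries, 0.652% of all tested genes were higher and 0.944% lower at an unadjusted p under 0.05 in edgeR's plasmid test.

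The 4 TIMP genes lay far apart in level. Timp1 (ENSMUSG00000001131, chromosome X, 20870166 to 20874735, plus strand; all coordinates are those of the deposited tables, GRCm38), a secreted inhibitor of most soluble MMPs, was the most abundant member. It stood at 1844, 2898, 2244 and 2233 FPKM in the TSP-4 plasmid libraries A to D and at 1815, 3135, 2223 and 2147 FPKM in the empty plasmid libraries. Library B was the highest and A the lowest in both groups, and the groups overlapped throughout. Of all member FPKM, Timp1 made up 66.1 ± 3.89% in the TSP-4 plasmid group and 67.1 ± 3.60% in the empty plasmid group (SD, n = 4 each). Its log2 fold change between plasmids was -0.02 (95% interval -0.45 to 0.41), and its letters differed with an adjusted p of 1.58e-06 (edgeR).

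Timp2, which blocks MMPs and also takes part in the activation of pro-MMP2 at the cell surface, was the steadiest of the abundant members. Its levels were 574, 570, 542 and 528 FPKM with the TSP-4 plasmid and 577, 542, 517 and 540 FPKM with the empty plasmid. The 8 values lay close together and the groups overlapped, and the letter test did not pass (edgeR adjusted p 0.246). Timp3 (chromosome 10, 86300372 to 86349506, plus strand), the TIMP that binds to the matrix and also inhibits ADAMTS enzymes, stood at 178, 190, 144 and 106 FPKM with the TSP-4 plasmid. With the empty plasmid it stood at 123, 168, 118 and 102 FPKM. Each TSP-4 plasmid library was above the empty plasmid library of its letter, by a ratio of 1.03 to 1.45, yet the groups overlapped. Timp4, the TIMP best known from heart tissue, was close to absent: it had 13 reads over the 8 libraries and did not pass the filter. Its levels were 0.00767, 0, 0.0700 and 0.00949 FPKM with the TSP-4 plasmid and 0.00798, 0.0198, 0 and 0.00881 FPKM with the empty plasmid.

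**Figure D1:**
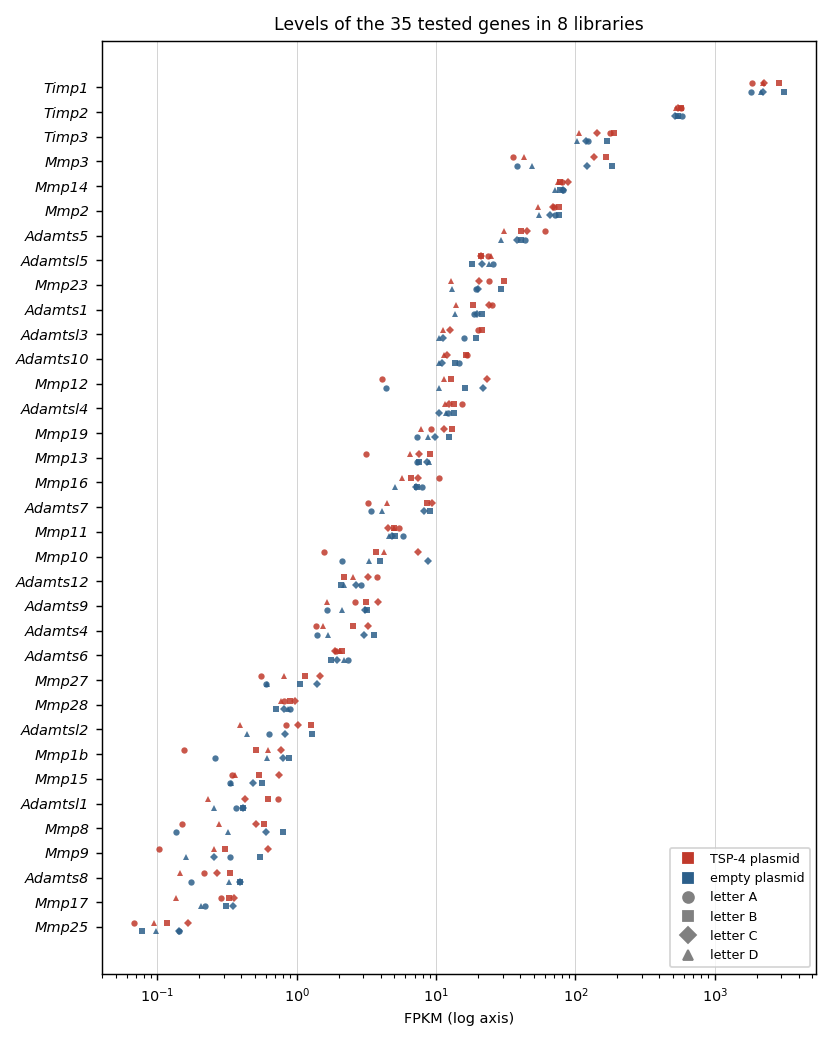
Levels of the 35 tested members as FPKM on a log axis, 1 point per library, with colour for the plasmid and shape for the letter. Genes are ordered by mean level: Timp1 (mean 2317 FPKM) and Timp2 (549 FPKM) lie apart from all other members, and red and blue points of each gene overlap.

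Timp1 and Timp3 overlap Syn1 and Syn3 on the other strand, whose reads came to 0.264% and 0.043% of theirs. Timp4 overlaps Syn2 on the other strand over 10314 bases, and Syn2 had 747 reads against its 13, so its reads cannot be told apart from those of Syn2. The 4 TIMP genes together summed to 3013 ± 454 FPKM in the TSP-4 plasmid group and 3002 ± 581 FPKM in the empty plasmid group, against 315 ± 90.3 and 315 ± 91.2 FPKM for the 22 MMP genes (SD, n = 4 each). The ratio of the sums was 9.96 ± 2.08 and 9.82 ± 1.69. It was lowest in letter C (7.71 and 8.08) and highest in letter D (12.6 and 12.0) in both groups. In the order of levels, every Timp1 value lay above every Timp2 value, and every Timp2 value above every Timp3 value. Timp3 and the next gene, Mmp3, overlapped between libraries, as did Mmp3, Mmp14 and Mmp2.

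Stromelysins, collagenases and the metalloelastase lie largely in a cluster on chromosome 9. In the deposited tables it holds 9 MMP genes, Mmp13, Mmp12, Mmp1b, Mmp3, Mmp10, Mmp8, Mmp27, Mmp20 and Mmp7, from 7272514 to 7699585 (427.1 kb), with 0 other protein-coding genes between them. The 5 widest ranges of letter means among members were those of Mmp12, Mmp3, Mmp10, Mmp8 and Mmp1b, all in this cluster. Of the 7 tested genes of the cluster, 6 were called between letters and 6 had letter means at least 1 log2 CPM apart. Among the 28 tested members elsewhere the counts were 17 and 7, and among all tested genes the shares were 28.1% and 9.92%. The median range of letter means was 1.98 log2 CPM in the cluster and 0.74 elsewhere. The cluster median was the value of Mmp8, which had 150 reads in all. Mmp8, Mmp1b (123 reads) and Mmp27 (314 reads) had means below 1 FPKM, as did some tested members elsewhere. The macrophage marker sum also differed between letters, and its part in these ranges was not tested.

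Promoter sequences of 5 cluster genes are shown because the genes differ in range while sharing a region. Each is the 250 bases before a RefSeq transcript start on the plus strand of GRCm38.p6, written 5′ to 3′. Capitals mark matches to AP-1 (TGANTCA) and to a TATA box (TATAAA), searched on both strands.

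Mmp13, chr9:7272264-7272513: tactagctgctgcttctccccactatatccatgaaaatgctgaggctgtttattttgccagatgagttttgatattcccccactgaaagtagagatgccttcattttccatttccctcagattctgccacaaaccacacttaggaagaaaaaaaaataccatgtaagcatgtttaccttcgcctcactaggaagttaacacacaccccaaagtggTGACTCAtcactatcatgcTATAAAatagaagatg

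Mmp12, second of its RefSeq starts, chr9:7347124-7347373: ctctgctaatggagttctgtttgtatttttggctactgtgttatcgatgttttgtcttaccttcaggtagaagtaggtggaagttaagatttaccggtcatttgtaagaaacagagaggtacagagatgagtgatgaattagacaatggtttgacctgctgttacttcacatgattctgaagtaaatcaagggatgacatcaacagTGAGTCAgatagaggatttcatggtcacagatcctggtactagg

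Mmp3, chr9:7445572-7445821: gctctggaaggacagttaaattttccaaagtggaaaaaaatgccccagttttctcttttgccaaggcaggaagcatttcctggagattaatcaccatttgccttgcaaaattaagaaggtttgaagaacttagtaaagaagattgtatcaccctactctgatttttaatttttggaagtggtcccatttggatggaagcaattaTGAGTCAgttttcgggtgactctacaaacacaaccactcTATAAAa

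Mmp10, chr9:7502092-7502341: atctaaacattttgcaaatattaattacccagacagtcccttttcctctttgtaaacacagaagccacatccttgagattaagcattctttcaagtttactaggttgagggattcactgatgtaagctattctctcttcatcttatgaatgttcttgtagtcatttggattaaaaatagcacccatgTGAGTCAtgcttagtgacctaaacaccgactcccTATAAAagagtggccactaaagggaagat

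Mmp8, chr9:7558179-7558428: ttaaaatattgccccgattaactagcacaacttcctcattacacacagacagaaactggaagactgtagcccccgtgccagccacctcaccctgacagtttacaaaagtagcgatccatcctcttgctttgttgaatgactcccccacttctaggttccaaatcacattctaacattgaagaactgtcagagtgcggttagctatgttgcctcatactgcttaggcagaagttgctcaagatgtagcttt

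The AP-1 match began 35 bases before the start in Mmp13, 44 in Mmp12, 46 in Mmp3 and 63 in Mmp10. A TATA match began 16, 7 and 29 bases before it in Mmp13, Mmp3 and Mmp10. Mmp8 held neither in these letters, nor did the window of the first Mmp12 start, which is not shown. RefSeq's table matched 32 of the 47 members. An AP-1 match lay in the 250 bases before a start of 7 of 9 cluster genes (Mmp10, Mmp12, Mmp13, Mmp1b, Mmp20, Mmp3 and Mmp7) and of 0 of the 23 other matched members, against 6.75% of 32851 starts of all genes. The TATA box was found in 6 of 9 cluster genes, 3 of the 23 others and 12.4% of all starts. PEA3 (AGGAAG), a motif of ETS factors that overlapped neither of these motifs in the sequences shown, was found in 6 of 9, in 7 of 23 and in 29.5%. Members were counted as genes with a match at any start, whereas the shares of all genes are of single starts. The windows also differed in base content. GC made up 37.2% to 53.2% of the cluster windows, against a median of 63.4% for the other members and 52.4% for all starts. The part of base content in these shares was not tested. A match describes letters in the window and does not show a bound site.

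Mmp3 (ENSMUSG00000043613, chromosome 9, 7445822 to 7455975), stromelysin-1, which cuts proteoglycans, fibronectin and other MMP proenzymes, was the most abundant MMP. It stood at 35.5, 165, 135 and 42.4 FPKM in the TSP-4 plasmid libraries A to D and at 37.8, 184, 121 and 48.5 FPKM in the empty plasmid libraries. Libraries B and C were high and A and D low under both plasmids. The highest letter mean was 4.76 times the lowest, while the ratio between plasmids within a letter was 0.874 to 1.12. The letters differed with an adjusted p of 3.68e-09 (edgeR), and the log2 fold change between plasmids was -0.06 (95% interval -1.61 to 1.49).

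Mmp12 (ENSMUSG00000049723, 7344381 to 7369499), the macrophage metalloelastase, had the widest range of letter means, 2.42 log2 CPM. Its levels were 4.07, 12.8, 23.2 and 11.3 FPKM with the TSP-4 plasmid and 4.38, 16.1, 21.7 and 10.5 FPKM with the empty plasmid. C was highest and A lowest in both groups (edgeR adjusted p 2.58e-06). The 12 macrophage markers summed to 318, 796, 1810 and 793 CPM in the TSP-4 plasmid libraries A to D and to 349, 1071, 1461 and 658 CPM in the empty plasmid libraries, so that C was highest and A lowest there too. All 12 markers were tested, none was at 0, 11 were called between letters (28.1% of all tested genes were) and 0 between plasmids. In bulk RNA, fewer macrophages and less RNA per macrophage cannot be told apart, and the part of these cells in the Mmp12 level was not tested. Neutrophil markers summed to at most 1.71 CPM, with S100a9, Ly6g and Elane at 0.

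Mmp10, stromelysin-2, stood at 1.58, 3.69, 7.43 and 4.25 FPKM with the TSP-4 plasmid and at 2.104, 3.96, 8.68 and 3.29 FPKM with the empty plasmid, with C highest and A lowest in both (edgeR adjusted p 8.77e-06). Mmp8, neutrophil collagenase, was low, at 0.149, 0.584, 0.511 and 0.277 against 0.136, 0.793, 0.602 and 0.321 FPKM, with 150 reads in all. B was its highest letter and A its lowest. Mmp27 stood at 0.552, 1.15, 1.47 and 0.810 against 0.596, 1.06, 1.39 and 0.611 FPKM, highest in C. Mmp1b, grouped here with the collagenases, was at 0.156, 0.508, 0.773 and 0.617 against 0.260, 0.885, 0.799 and 0.609 FPKM. A was low in each of these genes. Mmp1b had 123 reads in all and overlaps 1261 bases of Mmp12 on the other strand. The strand setting of the counting is not given in the sources used here, so their reads cannot be told apart there.

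Mmp13, collagenase-3, which cuts fibrillar collagens, had the narrowest range of letter means of the tested cluster genes (0.79 log2 CPM). Library A was its lowest in both groups, as in the other tested genes of the cluster. It stood at 3.16, 8.97, 7.55 and 6.44 FPKM with the TSP-4 plasmid and at 7.24, 7.48, 8.66 and 8.84 FPKM with the empty plasmid. Library A of the TSP-4 plasmid was the lowest, at 0.437 of the empty plasmid library of that letter, and the groups overlapped. Its log2 fold change was -0.31 (95% interval -0.95 to 0.33). It was not called between letters (edgeR adjusted p 0.458). It was called without the empty plasmid library A, where letter A rested on the TSP-4 plasmid library A alone (3.16 FPKM). Mmp20, the enamel protease, had 2 reads in all libraries together, and Mmp7, matrilysin, had 0.

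**Figure D2:**
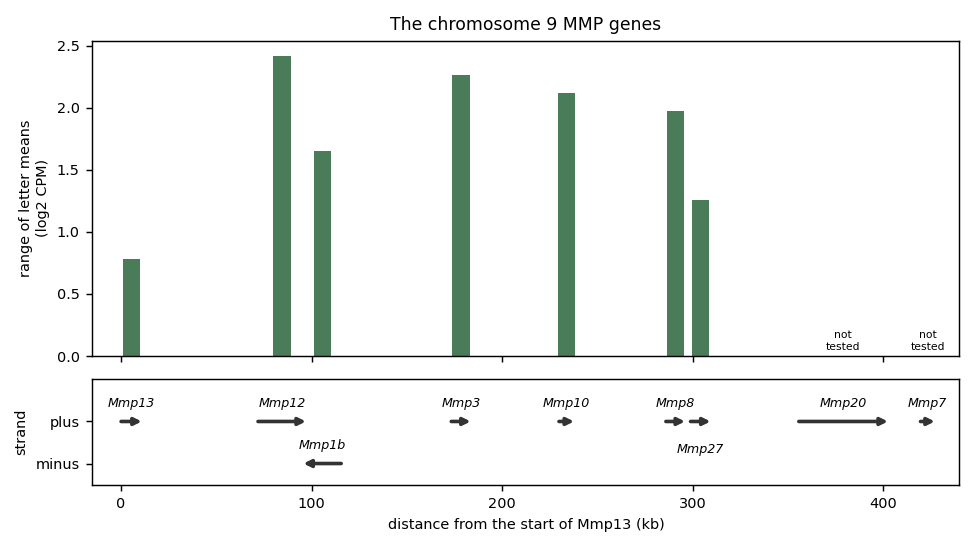
The 9 MMP genes of the chromosome 9 cluster, with distance from the start of Mmp13 in kb on the x axis: the bars give the range of letter means in log2 CPM and the arrows the extent and strand of each gene. 6 of the 7 tested genes reach 1 log2 CPM or more, and Mmp13 (0.79) does not.

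Outside the cluster, Mmp14, the membrane-type protease that activates pro-MMP2 on the cell surface, stood at 79.6, 77.5, 88.6 and 74.96 FPKM with the TSP-4 plasmid and at 82.1, 78.1, 81.1 and 71.8 FPKM with the empty plasmid. All 8 values lay close together. The letter test was at an edgeR adjusted p of 0.0402, the weakest of the 23 calls. It did not hold without the TSP-4 plasmid library B (0.0518), C (0.273) or D (0.139), or without the empty plasmid library C (0.0816) or D (0.202). Mmp2, gelatinase A, the constitutive gelatinase of fibroblasts, stood at 70.6, 76.4, 68.8 and 54.2 FPKM and at 71.5, 76.2, 65.3 and 54.3 FPKM. D was lowest and B highest under either plasmid (edgeR adjusted p 3.83e-05), and the plasmids differed within a letter by ratios of 0.988 to 1.05. Mmp9, gelatinase B, known from leukocytes, was far lower, between 0.102 and 0.617 FPKM with 167 reads in all, and was called in neither test (letters, edgeR adjusted p 0.361).

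Mmp23, an MMP with a membrane anchor at its amino end, stood at 23.9, 30.9, 20.3 and 12.8 FPKM with the TSP-4 plasmid and at 19.4, 29.2, 19.96 and 13.1 FPKM with the empty plasmid. B was highest and D lowest, 2.32-fold apart in their letter means (edgeR adjusted p 1.30e-06). Mmp19 (7.27 to 13.03 FPKM), Mmp16 (5.04 to 10.4 FPKM), a membrane-type MMP, and Mmp15 (0.331 to 0.743 FPKM), also membrane-type, were called between letters as well. Mmp11, stromelysin-3, kept to 4.50 to 5.79 FPKM and Mmp28 to 0.707 to 0.974 FPKM, and neither was called. The GPI-anchored Mmp17 and Mmp25 were at most 0.356 and 0.167 FPKM and were not called. Mmp24 and Mmp21 had 66 and 2 reads in all and were not tested. Mmp19 shares 789 bases with Tmem198b on the other strand, so the strand limit applies to it too.

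Among the proteoglycan-cutting ADAMTS genes, Adamts5, the main aggrecan- and versican-cutting enzyme of many tissues, was the most abundant. It stood at 60.6, 40.9, 44.9 and 30.5 FPKM with the TSP-4 plasmid and at 43.4, 40.8, 38.1 and 29.3 FPKM with the empty plasmid. Each TSP-4 plasmid library was at or above its letter partner, most of all in A, and the groups overlapped. A was highest and D lowest (edgeR adjusted p 0.0139), which did not hold without the TSP-4 plasmid library D (0.0693). Adamts4, the other major aggrecanase, stood at 1.37, 2.55, 3.25 and 1.55 FPKM and at 1.39, 3.56, 3.03 and 1.67 FPKM. B and C were high and A and D low (edgeR adjusted p 3.86e-05), the reverse of Adamts5 for letter A. Adamts1 (13.7 to 25.0 FPKM) and Adamts9 (1.64 to 3.83 FPKM) were not called in either test.

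Adamts8, a low member of the same group, had one of the 6 smallest unadjusted p-values between plasmids (0.242). It stood at 0.216, 0.332, 0.268 and 0.145 FPKM with the TSP-4 plasmid and at 0.173, 0.392, 0.393 and 0.326 FPKM with the empty plasmid, and the groups overlapped. Its log2 fold change was -0.42 (95% interval -1.18 to 0.34), the lowest of all tested members.

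Adamts7, which cuts the cartilage oligomeric matrix protein, stood at 3.25, 8.56, 9.40 and 4.42 FPKM with the TSP-4 plasmid and at 3.40, 9.08, 8.13 and 4.08 FPKM with the empty plasmid. B and C were high and A and D low, as in Mmp3 (edgeR adjusted p 7.67e-08). It lies on chromosome 9 too, from 90163069 to 90208071, far from the MMP cluster, and overlaps 6045 bases of Tbc1d2b, which had 16393 reads against its 5839. Adamts10, which binds the microfibrils of fibrillin, stood at 16.7, 16.4, 11.9 and 11.3 FPKM with the TSP-4 plasmid and at 14.5, 13.6, 11.1 and 10.4 FPKM with the empty plasmid. Every TSP-4 plasmid library was above its letter partner, by a ratio of 1.07 to 1.20. Adamts12, another protease of the oligomeric matrix protein, stood at 3.73, 2.16, 3.26 and 2.54 FPKM and at 2.90, 2.08, 2.65 and 2.18 FPKM, and was above its partner in all letters as well. The groups overlapped in both genes. Adamts6 kept to 1.77 to 2.34 FPKM and was called in neither test.

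Adamtsl5 was the most abundant ADAMTS-like gene, at 23.6, 20.9, 21.1 and 24.8 FPKM with the TSP-4 plasmid and 25.5, 18.2, 21.4 and 24.0 FPKM with the empty plasmid. A and D were high and B and C low, the inverse of Mmp3 (edgeR adjusted p 0.00602). Adamtsl3 (ENSMUSG00000070469, chromosome 7, 82335694 to 82614450, plus strand) stood at 19.97, 21.4, 12.6 and 11.1 FPKM with the TSP-4 plasmid and at 15.9, 19.2, 11.2 and 10.4 FPKM with the empty plasmid. A and B were high, C and D low, and each TSP-4 plasmid library was above its letter partner by a ratio of 1.07 to 1.26. Adamtsl4, which binds fibrillin microfibrils, stood at 15.3, 13.5, 12.4 and 11.7 FPKM and at 12.1, 13.5, 10.5 and 11.7 FPKM. Its B and D libraries were level between plasmids, and A and C were higher with TSP-4. Its letters were not called (edgeR adjusted p 0.0608). They were called without the TSP-4 plasmid library A or B or the empty plasmid library A, where that letter rested on a single library.

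Adamtsl2, a microfibril-binding protein linked to TGF-beta signalling, stood at 0.843, 1.25, 1.03 and 0.392 FPKM with the TSP-4 plasmid and at 0.630, 1.28, 0.819 and 0.442 FPKM with the empty plasmid. B was highest and D lowest, 3.05-fold apart in their letter means (edgeR adjusted p 0.000133). Adamtsl1 stood at 0.730, 0.617, 0.425 and 0.232 FPKM and at 0.365, 0.411, 0.414 and 0.256 FPKM. The TSP-4 plasmid library A was 2.00 times its letter partner and library D was below its own. The letter call of Adamtsl1 (edgeR adjusted p 0.0215) did not hold without the TSP-4 plasmid library D (0.303).

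The 12 members that were not tested each had 66 reads or fewer over the 8 libraries. Besides Timp4, Mmp24, Mmp21, Mmp20 and Mmp7, they were Adamts20 (47 reads), Adamts13 (24), which cuts von Willebrand factor, Adamts15 (21), Adamts17 (9), Adamts16 (3), Adamts19 (1) and Adamts18 (1). In all, 24 of the 47 members had a mean of at least 1 FPKM.

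The comparison of plasmids asked whether transcripts of this system differed in cells that overexpress TSP-4. The median log2 fold change of the 35 tested members was 0.03, with 22 above 0, and that of all tested genes was -0.00. At an unadjusted p under 0.05 in edgeR's fit on group alone, 0 members were higher and 0 lower, where 0.652% and 0.944% of all tested genes were. Differences between letters stay in the spread of this fit, so it can miss small differences between plasmids. The groups did not overlap in 0 members in either direction, against 0.652% of all tested genes with TSP-4 higher and 0.863% with TSP-4 lower. The 95% interval lay within 2-fold in either direction for 24 of 35 members (68.6%, against 88.5% of all tested genes), so for 11 members a 2-fold difference was not excluded by this fit. DESeq2 and limma voom also called 0 members.

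With the letter as a block, which compares libraries within letters, intervals were narrower. They then lay within 2-fold for 33 of 35 members. At an unadjusted p under 0.05 in edgeR's quasi-likelihood test, 6 members were higher with the TSP-4 plasmid and 0 were lower, against 4.14% and 3.98% of all tested genes. These were Adamtsl3, Adamts10, Adamts12, Timp3, Adamtsl1 and Adamtsl4. None passed after Benjamini-Hochberg adjustment, where 0.00679% of all tested genes passed in each direction. The smallest adjusted p of a member was 0.339, for Adamtsl3, with a log2 fold change of 0.18 (95% interval 0.09 to 0.28, 4 of 4 letters higher). Timp3 was at 0.26 (0.08 to 0.43, adjusted p 0.466 in edgeR), Adamts12 at 0.24 (0.11 to 0.37, adjusted p 0.376) and Adamts10 at 0.17 (0.08 to 0.27, adjusted p 0.376). Adamtsl4 stood at 0.14 (0.01 to 0.28) and Adamtsl1 at 0.43 (0.04 to 0.81), each in fewer than 4 letters. In all 4 letters, 5 members were higher with the TSP-4 plasmid (Timp3, Adamts5, Adamtsl3, Adamts10 and Adamts12; 14.3%, against 8.03% of all tested genes), and 0 were lower (8.04%).

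**Figure D3:**
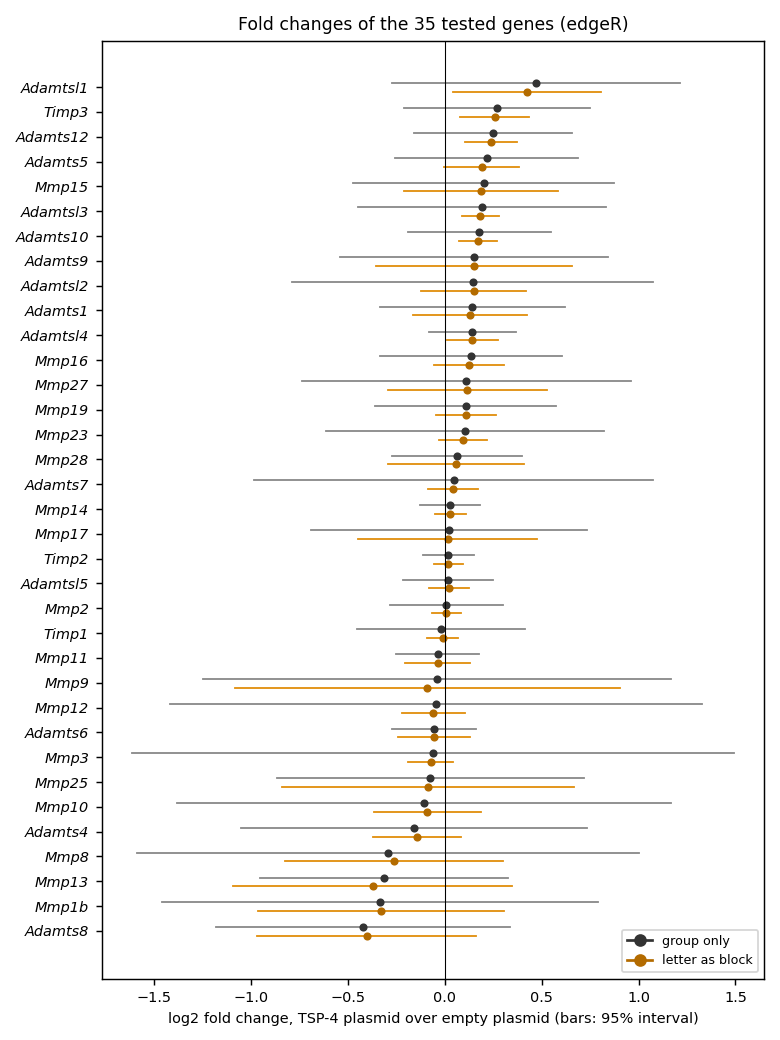
Log2 fold change of the 35 tested members, TSP-4 plasmid over empty plasmid, with 95% intervals from edgeR for the fit with group alone (black) and with the letter as a block (orange). All 35 black intervals include 0. The orange intervals are narrower for most genes, and those of 6 genes lie above 0.

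By role, the medians between plasmids lay between -0.31 and 0.14. All 3 tested collagenases and all 4 tested stromelysins and related enzymes had a value below 0, and all 5 ADAMTS-like genes a value above 0, with 0 called in any role. Between letters, 28.1% of all tested genes were called. Among members, the call count was 2 of 3 for TIMPs, 1 of 2 for gelatinases and 2 of 3 for collagenases. It was 3 of 4 for stromelysins and the metalloelastase, 3 of 5 for membrane-type MMPs and 3 of 4 for the other MMPs. It was 2 of 5 for the proteoglycan-cutting ADAMTS genes, 3 of 4 for the other ADAMTS genes and 4 of 5 for the ADAMTS-like genes.

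The letters did not raise or lower the members as one. Of the 23 genes called between letters, A was the highest letter for 6, B for 10, C for 7 and D for 0. A was the lowest for 11, D for 10 and B for 2. Those lowest in A included Timp1, Mmp3, Mmp12, Mmp10, Adamts7 and Adamts4, and those highest in A were Adamts5, Adamtsl5, Adamts10, Mmp16, Adamts12 and Adamtsl1. The range of letter means was 1 log2 CPM or more in 13 of 35 members (37.1%, against 9.92% of all tested genes), and the median range was 0.79 against 0.30. The same letter was highest in both groups for 20 of 35 members (57.1%), near the 47.9% of all tested genes. Members called between letters numbered 17 to 25 when 1 library was left out (all tested genes, 18.6% to 28.6%) and 19 to 24 when a whole letter was (20.1% to 23.8%). The call of Mmp1b did not hold without the TSP-4 plasmid library A (edgeR adjusted p 0.160), C (0.0694) or D (0.0501), or without the empty plasmid library A (0.100).

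**Figure D4:**
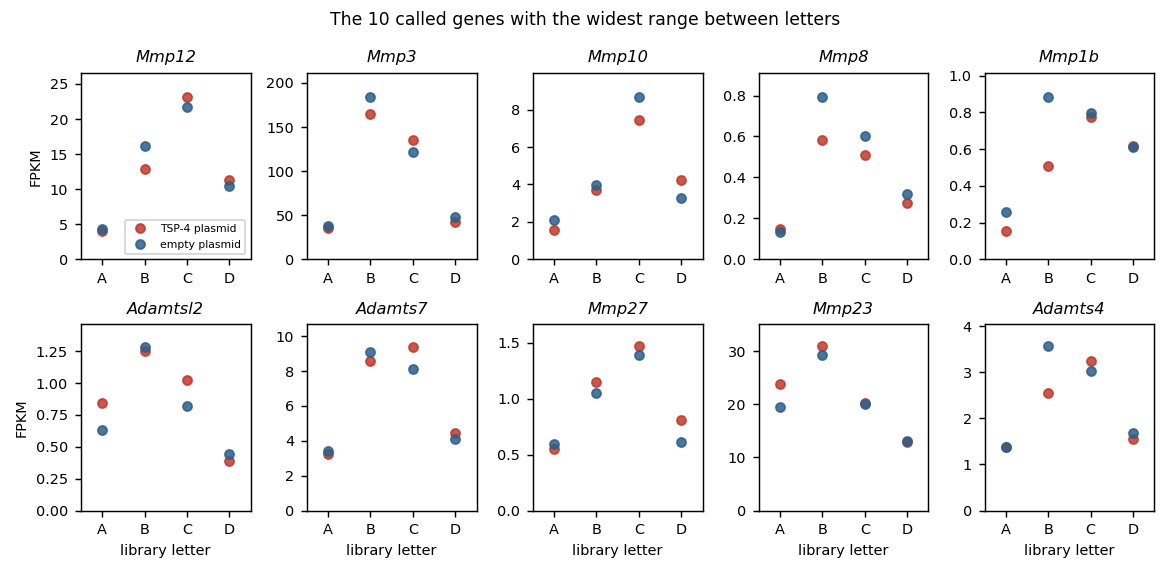
FPKM of the 10 called members with the widest range between letters, with the library letter on the x axis, red for the TSP-4 plasmid and blue for the empty plasmid. Mmp3 is high in B and C under both plasmids, Mmp12 and Mmp10 peak in C and Mmp23 in B.

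Of the other marker sums, the 5 epicardial and mesothelial genes stood at 564, 261, 332 and 435 CPM with the TSP-4 plasmid and at 549, 250, 324 and 433 CPM with the empty plasmid. A was highest there and B lowest, as B was for Adamtsl5 and Adamts12. The fibroblast marker sum, made up mostly of Col1a1 and Col1a2, was lowest in D in both groups (8208 and 8084 CPM). D was also the letter in which 10 of the called members were lowest. By FPKM, Col1a1, Col1a2, Tcf21, Ddr2 and Postn were lowest in D in both groups. Dcn was lowest in A and Gsn in C in both groups. Pdgfra was lowest in D with the TSP-4 plasmid and in A with the empty plasmid. Endothelial markers were between 46.0 and 79.7 CPM. Pericyte and smooth muscle markers summed to 57.0 CPM in the empty plasmid library A, against 19.6 to 25.9 CPM in the other empty plasmid libraries and 20.7 to 25.4 CPM with the TSP-4 plasmid. Of these 6 genes, 4 were tested and 0 were called between plasmids. Without that library, 0 members were called between plasmids and 25 between letters. Of 6 cardiomyocyte markers, 1 was tested. The part of any of these cells in the members' levels was not tested.

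**Figure D5:**
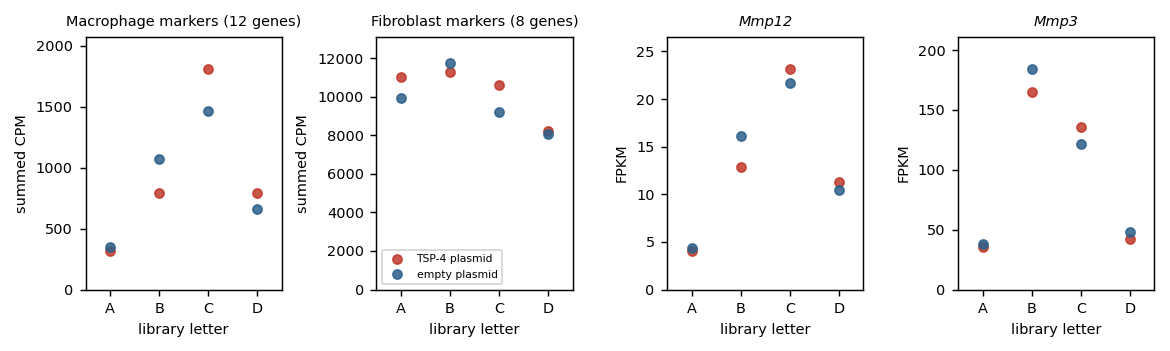
Summed CPM of macrophage and fibroblast markers and FPKM of Mmp12 and Mmp3 by library letter, red for the TSP-4 plasmid and blue for the empty plasmid. The macrophage sum and Mmp12 are both lowest in A and highest in C, while Mmp3 is highest in B.

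Genes that act with these proteases also gave 0 calls between plasmids. Of 14 tested genes for MMP activation, inhibition and clearance, 12 were called between letters, where 28.1% of all tested genes were. Reck, a membrane-anchored MMP inhibitor, stood at 29.5, 31.1, 22.2 and 18.4 FPKM with the TSP-4 plasmid and at 23.0, 26.2, 18.5 and 18.9 FPKM with the empty plasmid. Plau, urokinase, which starts the plasmin cascade that activates MMPs, stood at 7.28, 10.01, 17.3 and 10.2 FPKM and at 7.20, 15.05, 17.9 and 12.1 FPKM, with C highest and A lowest as in Mmp12. Of the ADAM sheddases and astacin proteases, 9 of 12 tested genes were called between letters. Of the ADAMTS substrates and partners, 7 of 9 were. Dcn, the proteoglycan decorin, stood at 24.9, 87.9, 64.4 and 28.8 FPKM and at 21.0, 92.7, 60.0 and 28.2 FPKM. B and C were high and A and D low, the order seen in Mmp3.

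The 16 listed regulators of MMP genes, among them AP-1 and ETS factors and inflammatory cytokines, had a median log2 fold change of -0.13 between plasmids, with 2 of 16 above 0. With the letter block, 8 were lower at an unadjusted p under 0.05 (3.98% of all tested genes were), and 0 were higher. These were Fos, Fosb, Fosl1, Jun, Junb, Ets1, Ets2 and Nfkb1, and none passed after adjustment. Fosl1, an AP-1 subunit, stood at 23.0, 40.3, 42.3 and 56.8 FPKM with the TSP-4 plasmid and at 36.8, 44.5, 51.6 and 65.7 FPKM with the empty plasmid. The empty plasmid library was the higher one in each letter, with a log2 fold change of -0.33 in the block fit (edgeR adjusted p 0.419). In the same fit, the 5 tested members with an AP-1 match stood at -0.07 (-0.19 to 0.04) for Mmp3, -0.06 (-0.22 to 0.10) for Mmp12, -0.09 (-0.37 to 0.19) for Mmp10, -0.33 (-0.96 to 0.30) for Mmp1b and -0.37 (-1.09 to 0.35) for Mmp13. All 5 intervals include 0. Of the cluster genes without an AP-1 match, Mmp8 stood at -0.26 (-0.82 to 0.30) and Mmp27 at 0.12 (-0.29 to 0.53). Whether the regulators or the AP-1 matches bear on these values was not tested.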

How the data were processed

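The kit for the poly(A) libraries was NEBNext Ultra, per the labels. HTSeq 0.6.1, Cufflinks 2.1.1, TopHat2 2.0 and CASAVA, with mm10 and GRCm38.p6, are listed in the submitters' processing notes with no role. The authors deposited whole-number counts per gene and FPKM. Each deposited FPKM value equals the count over gene length and library total, times 1 constant per library (0.974 to 1.02). For strand setting and annotation release nothing is given in the sources used here.

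Counts were tested with edgeR 4.0.16 (quasi-likelihood, robust, TMM) in R 4.3.3 after its expression filter (minimum count 10), on group alone, at a Benjamini-Hochberg adjusted p of 0.05. The letter test used 3 coefficients beside group. Letter means are of log2 CPM computed from the deposited counts with a prior count of 2. FPKM served for levels per length. Alternatives were the letter block, DESeq2 1.42.0, limma 3.58.1 voom, no filter and leaving out libraries. No 2 libraries agreed within counting noise. The members and gene lists were chosen with earlier results of these data known. Per-sample values are given for the TIMPs, members with a mean of at least 20 FPKM, the 6 with the smallest p in either fit, and the 10 with the widest letter range. The overlap of 1 member with another gene is not reported here. Reck, Plau, Dcn and Fosl1 were chosen after their values were seen.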

Additional observations from a re-analysis of the deposited data

Results flagged for a closer look

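In groups of 4 libraries, 66 values were examined for a library apart from the rest, of which chance flags about 5%, and 3 were found. For Timp4 with the TSP-4 plasmid, library C (0.0700 FPKM) lay apart from the nearest, D (0.00949 FPKM), by 0.865 of the group's range. Timp4 had 13 reads in all and lies within Syn2, which had 747. For the total counts of the TSP-4 plasmid group, library A (22530947) lay above the nearest, B (17681837), by 0.897 of the range. For the pericyte and smooth muscle marker sum with the empty plasmid, library A (57.0 CPM) lay above the nearest, D (25.9 CPM), by 0.831 of the range.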

How the results depend on the processing

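The letters occur in both groups and the data, not the labels, pair them. With the letter as a replicate block, 0 members were called between plasmids and their median log2 fold change was 0.03, as without it. DESeq2, limma voom, no filter on low counts and leaving out any library or letter also gave 0 calls among members and among the other genes of the system. The median ranged from -0.040 to 0.18 when 1 library was left out. Of 24 tested genes given with per-sample values, 14 changed the sign of an uncalled fold change when 1 library was left out, with log2 values of Timp1 -0.15 to 0.16, Timp2 -0.0018 to 0.045, Mmp3 -0.47 to 0.44, Mmp14 -0.016 to 0.059, Mmp2 -0.079 to 0.10, Adamtsl5 -0.066 to 0.084, Mmp23 -0.11 to 0.33, Mmp12 -0.49 to 0.31, Mmp10 -0.51 to 0.44, Mmp8 -0.61 to 0.086, Adamtsl2 -0.079 to 0.47, Adamts7 -0.19 to 0.29, Mmp27 -0.13 to 0.40 and Adamts4 -0.41 to 0.091. In the replicate block fit without letter B, Timp1 was at 0.026, Adamtsl5 at -0.033 and Mmp12 at 0.040. Without letter C, Mmp2 was at -0.0056 and Adamts7 at -0.016. The cause was not tested. Members called between letters numbered 20 of 34 with DESeq2 (19.1% of all tested genes), 25 of 35 with limma voom (27.3%), 26 of 46 with no filter (16.7%) and 19 of 35 with no group term (24.7%), against 23 of 35 (28.1%). Among the genes with per-sample values, Mmp14, Mmp1b and Mmp27 were lost with DESeq2, and Timp3, Mmp14, Adamts5 and Adamtsl1 with no group term. Also among these, without both libraries of a letter, the calls of Mmp8 and Mmp1b (A), Timp3 (B), Mmp14 and Mmp27 (C), and Mmp14, Adamts5 and Adamtsl1 (D) were lost. The letter call of Adamtsl4 was gained with no filter and without letter A. Depth limits the members with few reads, such as Mmp1b and Mmp8, whose levels rest on 123 and 150 reads. Overlapping genes, the plasmid backbones and the share of other cells in each culture limit what a level can be credited to.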
